A study of Mus musculus with 3 samples.

Results

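Mast cells and basophils were 220 of the 19622 lung cells that were analysed. A cell was taken as a member when at least 3 of 9 genes (Cpa3, Fcer1a, Ms4a2, Gata2, Cyp11a1, Mcpt8, Tpsb2, Mcpt4 and Cma1) were above 0 and none of Cd3e, Cd79a, C1qa and Epcam was above 0. Among the members, the 169 mast cells had at least 2 of Tpsb2, Mcpt4, Cma1 and Kit above 0, and the 43 basophils had Mcpt8 above 0 with Tpsb2, Mcpt4 and Cma1 all at 0. Another 8 members fell into neither class. The members were thus selected on the measured levels of these genes, which are given as a description.

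Each of the 3 libraries came from the lung of 1 female wild-type C57BL/6J mouse, and all 3 mice had received 13 Gy to the thorax. The CONV mouse was irradiated at the conventional dose rate and the FLASH mouse at the ultra-high dose rate. The CONV AsiDNA mouse was irradiated at the conventional dose rate after intraperitoneal AsiDNA, a short DNA decoy that mimics a double-strand break, given at 100 mg/kg on the preceding days and at 200 mg/kg on the day of the beam. Lungs were taken 5 months later and dissociated with dispase and elastase, and the cells were encapsulated in droplets for 3′ sequencing. All 3 mice were irradiated, and control libraries were not analysed here. Each condition is a single mouse, so no test was run, and the intervals given with shares reflect only how many cells were sampled.

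Mast cells are tissue-resident cells that depend on the receptor KIT and store proteases, histamine and proteoglycan in granules, which they release when IgE on the high-affinity receptor is cross-linked. Basophils are blood granulocytes that carry the same IgE receptor, enter inflamed tissue and are known in the mouse for the protease MCPT8 and for IL-4. GATA2 is required in both lineages. In the lung, mast cells lie along airways and vessels, and mouse mast cells are commonly divided into a connective tissue type rich in tryptase and MCPT4 and a mucosal type with other chymases.

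The chymase-type proteases that separate the classes are neighbours in 1 gene cluster. On GRCm38 (GENCODE annotation), Cma1 lies at chr14:55941451-55944675, Mcpt2 at chr14:56042041-56044642, Mcpt4 at chr14:56059629-56062313 and Mcpt8 at chr14:56082166-56085273, all protein-coding, with Mcpt2 on the plus strand and the others on the minus strand. Cpa3 lies apart at chr3:20215620-20242181 on the minus strand, and Tpsb2 at chr17:25366305-25369098 on the plus strand. The promoters of 3 mast cell genes and of the basophil gene Mcpt8 are shown because Mcpt4, Cma1 and Mcpt8 enter the class rules, Cpa3 enters the rule for members, and GATA2 is a factor of both lineages. The sequences are the 120 bases before the annotated start in the RefSeq table (GRCm38.p6), 5′ to 3′ on the gene's strand, at chr3:20242182-20242301 for Cpa3, chr14:56062314-56062433 for Mcpt4, chr14:55944676-55944795 for Cma1 and chr14:56085274-56085393 for Mcpt8. Capitals mark GATAA or its reverse complement TTATC.

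Cpa3: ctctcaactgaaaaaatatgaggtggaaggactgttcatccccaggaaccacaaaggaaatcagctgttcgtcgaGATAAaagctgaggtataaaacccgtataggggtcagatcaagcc

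Mcpt4: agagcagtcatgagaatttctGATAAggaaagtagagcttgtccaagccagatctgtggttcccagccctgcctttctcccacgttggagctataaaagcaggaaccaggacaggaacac

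Cma1: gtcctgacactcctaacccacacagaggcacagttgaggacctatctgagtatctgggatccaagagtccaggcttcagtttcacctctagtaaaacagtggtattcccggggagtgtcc

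Mcpt8: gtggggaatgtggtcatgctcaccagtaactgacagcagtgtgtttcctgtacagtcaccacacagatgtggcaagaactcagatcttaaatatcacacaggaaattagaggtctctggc

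Cpa3 and Mcpt4 each held 1 such motif in these windows, while Cma1 and Mcpt8 held none. Cma1 had 1 within 250 bases, and Mcpt8 had 0. The motif was present in 10.5% of 32851 promoter windows of 120 bases and in 22.6% of those of 250 bases, so a match is a description of the sequence only. Of the 10 genes looked for (the 9 rule genes and Kit), 9 were in the RefSeq table. Within 250 bases Ms4a2 had 3 such motifs and Fcer1a 1, while Gata2, Cyp11a1 and Kit had 0.

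Each deposited value was converted back to a whole number, called the adjusted count here, and a level is the summed adjusted count of a gene in a class of a library, scaled to a class total of 1000000 (adjusted CPM). The libraries held 6372 (CONV), 6983 (CONV AsiDNA) and 6267 (FLASH) cells of 22954 genes, with medians of 3450, 3678 and 3621 adjusted counts per cell. Mast cells had medians of 3166, 3709.5 and 3121.5, and basophils of 3221, 3356 and 3320.5. The FLASH library stood apart in which genes were listed at 0: Gm42418, which overlaps a ribosomal RNA repeat, was above 0 in 93.0% and 93.9% of all CONV and CONV AsiDNA cells but in 5.15% of FLASH cells, and in none of the FLASH mast cells and basophils. Between pairs of libraries 9 to 17 cell barcodes were shared, and at most 1 of a pair's shared barcodes belonged to a member.

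Most of the rule genes were nearly confined to the members, Gata2 and, in FLASH, Cma1 (56.8% of its adjusted counts) being exceptions. Cpa3, the carboxypeptidase of mast cell granules, had 98.9% (CONV), 99.8% (CONV AsiDNA) and 100% (FLASH) of its adjusted counts within the members. Fcer1a and Ms4a2, the alpha and beta chains of the IgE receptor, were above 0 in 0 to 2 other cells of any library. Kit and Gata2 were less restricted, with 71.4%, 50.6% and 16.9% of Kit counts and 65.8%, 51.0% and 27.9% of Gata2 counts in the members of CONV, CONV AsiDNA and FLASH. As a type that should lack these genes, 3409 B cells (Cd79a and Ms4a1 above 0; median 2882.5 to 3084 adjusted counts per cell) were examined, and of the 9 rule genes only Cyp11a1 in 7 and Cma1 in 3 FLASH B cells were above 0. Few cells lay near the threshold: without an exclusion gene, exactly 2 rule genes were above 0 in 1, 2 and 2 cells and exactly 3 in 0, 1 and 1 cells.

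The class rules used Cma1, Mcpt4, Tpsb2 and Mcpt8, so their levels in the classes describe the selection. Cma1, a chymase, was above 0 in 108 of 109, 52 of 52 and 8 of 8 mast cells at 14531, 26740 and 18508 adjusted CPM in CONV, CONV AsiDNA and FLASH. Mcpt4, the chymase of connective tissue mast cells, was above 0 in 95, 39 and 7 of these cells at 11266, 23467 and 15875. Tpsb2, a tryptase, was above 0 in 106, 43 and 5 cells at 13269, 18802 and 11563. In basophils these 3 genes were at 0 by the rule, and Mcpt8 stood at 32160, 4504 and 4017 in the 3, 22 and 18 cells of the same libraries. The CONV value came from 1 cell with 366 adjusted counts of Mcpt8, while the other 2 CONV basophils had 1 and 2. Markers of T cells, dendritic cells and macrophages were at 0 in both classes (Cd3e and C1qa by the rule), except Apoe in mast cells (57 of 109, 26 of 52 and 0 of 8 cells). B cell markers were above 0 in 3 CONV mast cells, 1 of them with 2 markers, and in 1 CONV AsiDNA mast cell, and MHC class II genes in 1 FLASH mast cell. Of the 9 markers of group 2 innate lymphoid cells, at least 1 was above 0 in 104 of 109, 52 of 52 and 8 of 8 mast cells and in 3 of 3, 18 of 22 and 11 of 18 basophils, and 2 or more were in 41, 29 and 4 mast cells and 2, 11 and 4 basophils. This list holds Il1rl1 and Il13, which mast cells are also known to express. Its gene Il7r, a receptor chain for interleukin 7, was above 0 in 21, 2 and 0 mast cells at 134.5, 10.5 and 0 adjusted CPM, a log2 difference of 1.61 between CONV and CONV AsiDNA, and in 1, 8 and 0 basophils. Gata3 was above 0 in 8, 1 and 0 mast cells and in 0 basophils, Rora in 2 basophils each of CONV AsiDNA and FLASH, and Areg, Cxcr6 and Il5 were at 0 in both classes. The part of such cells in the results was not tested. Of the 8 FLASH mast cells, 1 carried 675 adjusted counts of Sftpc, the surfactant gene of alveolar type 2 cells.

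The share of mast cells was highest in CONV and lowest in FLASH. The CONV library had 109 mast cells among 6372 cells (1.71%, exact Clopper-Pearson 95% interval 1.41 to 2.06). There were 52 among the 6983 cells of CONV AsiDNA (0.745%, 0.557 to 0.975) and 8 among the 6267 cells of FLASH (0.128%, 0.0551 to 0.251). These 3 intervals did not overlap. Basophils were fewest in CONV, with 3 cells (0.0471%, 0.00971 to 0.138), against 22 for CONV AsiDNA (0.315%, 0.198 to 0.477) and 18 for FLASH (0.287%, 0.170 to 0.454). The intervals of CONV AsiDNA and FLASH overlapped for basophils, and that of CONV lay below both. Of mast cells and basophils together, mast cells made up 97.3% for CONV (92.4 to 99.4), 70.3% for CONV AsiDNA (58.5 to 80.3) and 30.8% for FLASH (14.3 to 51.8).

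The order was the same over a leukocyte denominator. Over members and cells with Ptprc (the pan-leukocyte gene CD45) above 0, mast cells were 2.49%, 1.10% and 0.190%, and basophils 0.0686%, 0.463% and 0.428%. Cells with the neutrophil genes S100a8, S100a9 and Csf3r, counted the same way in all cells, were 4.10%, 4.18% and 4.60% of the 3 libraries, and their intervals overlapped. When each cell was thinned to 1000 adjusted counts before the rule was applied, each share of mast cells and of basophils stayed inside the interval of its unthinned share. The interval for CONV basophils is wide, and that share moved from 0.0471% to 0.0157%.

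**Figure D1:**
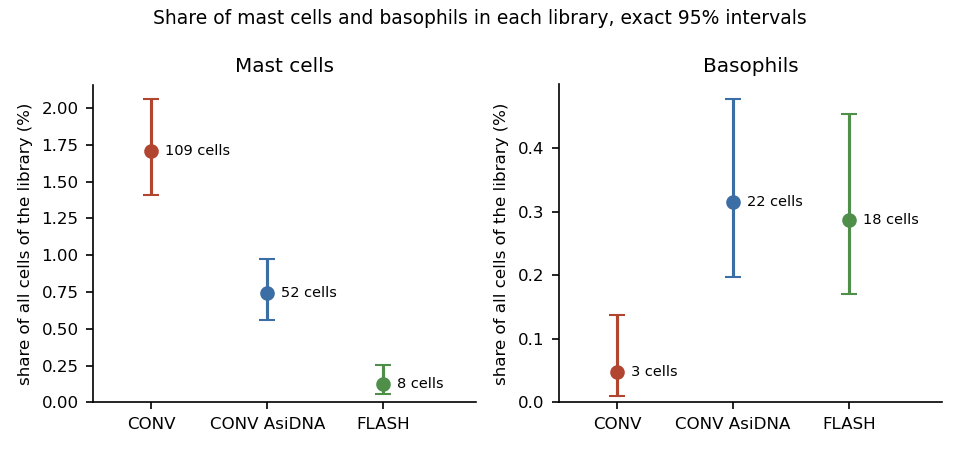
Share of all cells of a library (%) that were mast cells (left) or basophils (right) in CONV, CONV AsiDNA and FLASH, 1 mouse each, with exact 95% intervals as bars and the number of cells beside each point. The mast cell intervals do not overlap (1.71%, 0.745% and 0.128%), and the CONV basophil share (0.0471%) lies below the other 2.

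Within each library, mast cells and basophils were compared with each other. A gene was called here when its level (adjusted CPM plus a pseudocount of 50) was at least 2-fold higher in 1 class in all 3 libraries, among 3981 genes whose adjusted counts summed to 20 or more, rule genes left out. By this measure 160 genes (4.02%) were higher in mast cells and 90 (2.26%) in basophils. These counts rest on few cells, since CONV had 3 basophils and FLASH 8 mast cells, and the lower class was often listed at 0. Of the 160, 130 were at 0 in the basophils of at least 1 library (35 in all 3) and 30 were above 0 in each, and of the 90, 49 were at 0 in the mast cells of at least 1 library. In CONV AsiDNA alone, where both classes had at least 22 cells, 574 genes (14.4%) were higher in mast cells and 278 (6.98%) in basophils. They were 335 and 141 without FLASH, 298 and 156 without CONV AsiDNA, and 213 and 147 without CONV, while leaving out the CONV basophil with 366 adjusted counts of Mcpt8 gave 166 and 80. With a pseudocount of 10 the counts over all 3 libraries were 373 and 143, and with 200 they were 47 and 42. No test was run, and the classes were cut from the same cells by their measured genes.

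Granule genes were among those higher in mast cells. Of 14 amine and proteoglycan genes tested, 6 were higher in mast cells in all libraries and 0 in basophils. They included Rab27b, a GTPase of granule secretion, at 798, 998 and 878 adjusted CPM in mast cells of CONV, CONV AsiDNA and FLASH and at 0, 0 and 33.1 in basophils. Tph1, which makes serotonin's precursor, was at 350, 326 and 229 in mast cells and listed at 0 in all basophils. Hs6st2 and Ndst2, enzymes of heparan sulfate and heparin sulfation, followed the same pattern. Hdc, the histamine-forming enzyme, was shared by the classes: it stood at 8217, 6078 and 6907 in mast cells and at 2702, 7702 and 6001 in basophils. Among the other proteases, Tpsg1 (a membrane tryptase), Cma2 and Gzmb were called for mast cells, and Gzmb, granzyme B, was also above 0 in 9 of 22 CONV AsiDNA basophils.

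Of 19 genes tested from the receptor list, 4 were higher in mast cells and 1 in basophils in all libraries. In CONV AsiDNA alone they were 6 and 4. Mrgprb2, the receptor by which basic peptides and drugs activate mast cells without IgE, was above 0 in 78 of 109, 37 of 52 and 6 of 8 mast cells at 604, 604 and 572 adjusted CPM and in 0 basophils. Its neighbour in the family Mrgprb1 was at 1285, 1224 and 1679 in mast cells and also in 0 basophils. Il1rl1, the receptor of IL-33, was at 2323, 2748 and 4198 in mast cells against 261, 177 and 132 in basophils, a within-library log2 difference of 2.93 to 4.54. Adora3, an adenosine receptor, was the fourth receptor called for mast cells. Il18rap, the accessory chain of the IL-18 receptor, was the only one of 19 tested receptor genes called for basophils, at 436, 517 and 281 against 0 in all mast cells. Csf2rb, the shared beta chain of the IL-3, IL-5 and GM-CSF receptors, was above 0 in both classes, at 720, 956 and 38.2 in mast cells and 261, 1225 and 496 in basophils.

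Of 17 transcription factors tested, 3 were higher in mast cells and 2 in basophils in all libraries. Gata2 was above 0 in both (2251, 2396 and 2061 in mast cells, 697, 3184 and 4182 in basophils). Cebpa, a granulocyte factor, was listed at 0 in all mast cells and stood at 87.2, 272 and 231 in basophils. Cebpb was higher in basophils in each library (8367, 2341 and 3984 against 2039, 504 and 611). Hes1, a Notch target, was called for mast cells (1241, 946 and 1984 against 0, 40.8 and 727). In CONV and CONV AsiDNA, Mitf, a mast cell factor, was above 0 in 52 of 109 and 33 of 52 mast cells and in 0 basophils, and it was listed at 0 in the FLASH mast cells too.

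The 2 classes carried different secreted factors. Of 19 cytokine, chemokine and growth factor genes tested, 8 were higher in basophils and 3 in mast cells. Basophils held Il6 at 1656, 3838 and 3670 adjusted CPM against 23.9, 221 and 0 in mast cells. Ccl3, an inflammatory chemokine, was at 19261, 27816 and 25888 in basophils and at 108, 1629 and 2480 in mast cells. Il4, the type 2 cytokine, was at 1133, 3007.5 and 1653 in basophils and at 191, 399 and 611 in mast cells. Csf1 (the macrophage growth factor), Osm, Ccl4, Ccl9 and Hilpda completed the basophil group. Mast cells held Ccl2, a chemokine that draws monocytes, at 2678, 8321 and 3434 against 0, 27.2 and 116, and Ccl7, its relative, at 813, 3178 and 1374 against 0 in all basophils. Lif was the other gene called for mast cells.

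Il6 shows how much of a library's message these few cells could hold. Members were 1.12% of CONV AsiDNA cells and 0.447% of FLASH cells but carried 70.4% and 72.4% of all Il6 adjusted counts there. In CONV, where 3 basophils were found, they carried 17.0%, and 90 other cells were above 0. For Il4 the shares in members were 91.9%, 95.4% and 81.5%.

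Of 7 eicosanoid and steroid enzyme genes tested, 1 was higher in mast cells and 1 in basophils, and of 13 adhesion genes 0 and 2 (Ccr1 and Cd69). Hpgds, the synthase of prostaglandin D2 in mast cells, was at 505, 578 and 611 in mast cells and at 0, 0 and 49.6 in basophils. Alox5ap, which activates 5-lipoxygenase, was higher in basophils (1830, 2286 and 777 against 637, 641 and 0). Cyp11a1, the enzyme that starts steroid synthesis from cholesterol, was above 0 in both classes (1330, 1245 and 954 in mast cells and 1394, 2518 and 2744 in basophils). Among genes named by rank, Tmsb4x, which encodes an actin-binding peptide, stood at 20481, 23352 and 24814 in basophils against 1940, 2438 and 2328 in mast cells. Actg1, an actin, was also in this ranking, but it was listed at 0 in all 109 CONV mast cells and in 48 of 52 CONV AsiDNA mast cells, which is not read as absence in a gene that every cell uses. Ifitm1 was above 0 in 42 of 43 basophils, at 4358, 9240 and 10299 against 68.8, 15.8 and 38.2 in mast cells. On the mast cell side of the same ranking were Atp8b5, Ube2v2, Zfp36l1, Rhob and Tmem158, and Rhob was at 1620, 714 and 572 in mast cells and at 0, 40.8 and 0 in basophils. The remaining genes of the basophil ranking were Ncf1 (a subunit of the phagocyte oxidase), Dusp5, Cks2 and Gm12840.

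**Figure D2:**
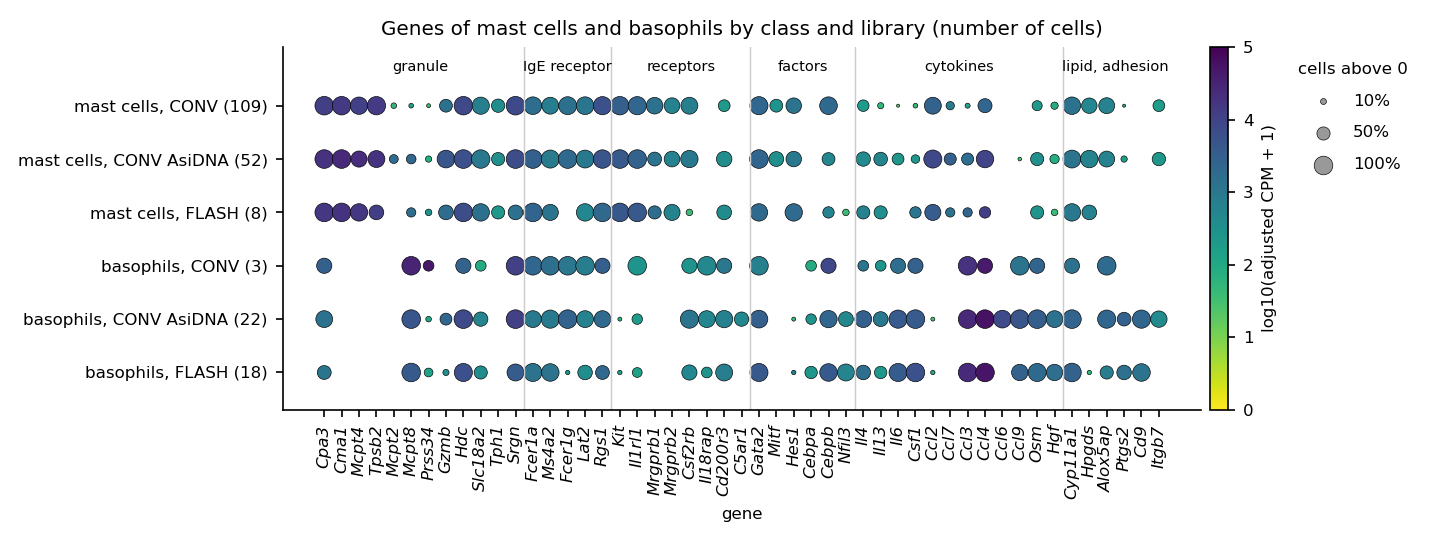
Genes of 6 functional groups (columns) in mast cells and basophils of CONV, CONV AsiDNA and FLASH (rows, number of cells in brackets); the area of a point is the share of cells above 0 and its colour log10 of adjusted CPM plus 1. Cma1, Mcpt4 and Tpsb2 are at 0 in the basophil rows by the class rule. Mrgprb1, Mrgprb2 and Ccl7 are above 0 in the mast cell rows and at 0 in the basophil rows. Il6, Ccl3 and Ccl9 are higher in the basophil rows. The level of Srgn is lower in FLASH than in CONV AsiDNA. Fcer1g is listed at 0 in most FLASH cells of both classes, which is not read as absence of the transcript.

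The mast cells were not uniform. In 12 of 169 mast cells Mcpt8 was above 0 while Tpsb2 and Mcpt4 were both at 0, a grouping made after the values were seen. CONV had 2 such cells of 109 (1.83%, 0.223 to 6.47), CONV AsiDNA 9 of 52 (17.3%, 8.23 to 30.3) and FLASH 1 of 8 (12.5%, 0.316 to 52.7). Mcpt8 in these cells had a median of 32 adjusted counts (range 4 to 100), while in the other mast cells it reached at most 2, 34 and 18 in the same order of libraries. Whatever their Tpsb2 and Mcpt4, Mcpt8 was above 0 in 7 of 109 (6.42%), 14 of 52 (26.9%) and 2 of 8 (25.0%) mast cells, and at a common depth of 1000 adjusted counts in 2.75%, 23.1% and 25.0%.

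Cma1 (median 36.5, range 1 to 127) and Kit were above 0 in 12 of 12, which the class rule fixes once Tpsb2 and Mcpt4 are at 0. Hdc and Il1rl1, which no rule used, were above 0 in 12 of 12 as well, and so was Cpa3 (median 61.5). Several genes common in the other mast cells were rare in them: Mrgprb1 was above 0 in 0 of 12 against 120 of the other 157 mast cells, Tph1 in 0 against 86, Tpsg1 in 1 against 113 and Mrgprb2 in 2 against 119. Other genes of mast cells were not rare in them. Mitf was above 0 in 9 of 12 against 76 of 157, Hpgds in 10 against 116, Adora3 in 6 against 72 and Rab27b in 8 against 140. Gzmb was above 0 in 12 of 12 (11073 adjusted CPM, median 37.5 per cell) against 92 of 157 (1720, median 2). Itga4 and Itgb7, the chains of the integrin by which mast cell progenitors enter mucosal tissue, were above 0 in 10 and 9 of 12, at 928 and 464 adjusted CPM against 134 and 160. Il13 was above 0 in 11 of 12 at 1304 against 33 of 157 at 134, and Fos was at 3382 against 18567. Within CONV AsiDNA alone the values for 9 and 43 cells were 10590 and 3133 for Gzmb, 937 and 303 for Itga4, and 1533 and 303 for Il13. Itgb7 was at 454 and 168. Basophils shared part of this: in CONV AsiDNA, Itgb7 and Il13 were above 0 in 17 and 14 of 22 basophils, at 422 and 1007. Itga4 and Gzmb were above 0 in 3 and 9 of these basophils, at 109 and 2191. Of the secreted factors that were higher in basophils, Ccl4 was above 0 in 11 of 12 of these cells and in 100 of the other 157, Ccl3 in 10 and 22, Il6 in 8 and 16, Osm in 7 and 55, Il4 in 6 and 71, Csf1 in 3 and 18 and Ccl9 in 2 and 0. Cd9 was at 0 in both sets.

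Mcpt2, a protease of mucosal mast cells, marked another small set. It was above 0 in 10 of 109 CONV mast cells with at most 4 adjusted counts, in 12 of 52 CONV AsiDNA mast cells with up to 158, and in 0 of 8 FLASH mast cells. Of the 12 cells with Mcpt8 and neither Tpsb2 nor Mcpt4, 1 had Mcpt2 above 0. The CONV AsiDNA cell with 158 adjusted counts of Mcpt2 also held 34 of Mcpt8, 4 of Tpsb2 and 1 of Mcpt4.

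**Figure D3:**
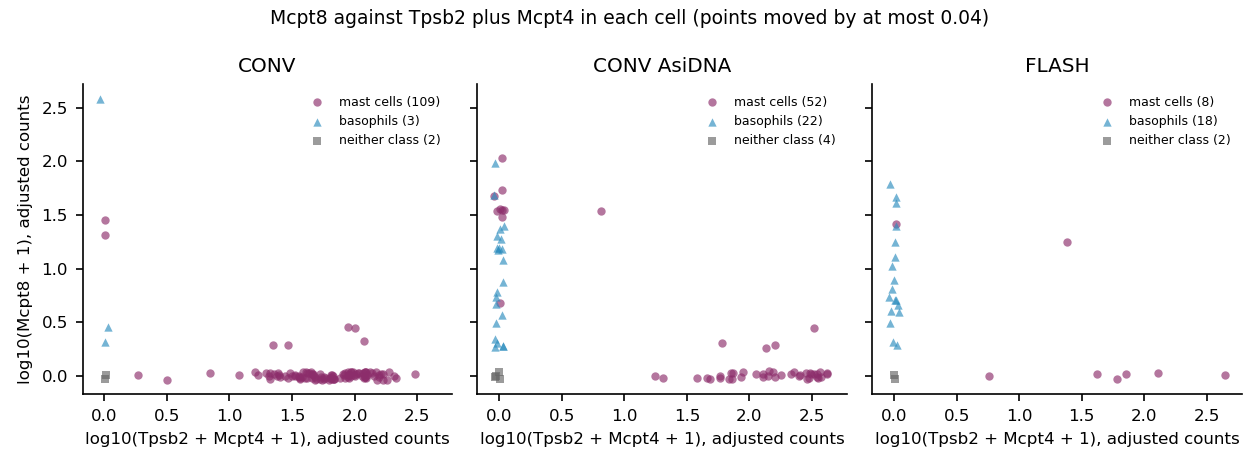
Each point is a cell of CONV (left), CONV AsiDNA (middle) or FLASH (right), with log10 of Tpsb2 plus Mcpt4 plus 1 on the x axis and log10 of Mcpt8 plus 1 on the y axis (adjusted counts, points moved by at most 0.04 so that they can be told apart). Mast cells (circles) at an x value of 0 with Mcpt8 above 0 number 2, 9 and 1, and 1 CONV basophil (triangle) stands at the top with 366 adjusted counts of Mcpt8.

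Dividing cells were few. A cell was taken as dividing when at least 2 of Mki67, Top2a and Birc5 were above 0. This held for 0 of 109 CONV (upper bound of the exact interval 3.33%), 4 of 52 CONV AsiDNA (7.69%, 2.14 to 18.5) and 0 of 8 FLASH mast cells. Of the 4, 1 was among the cells with Mcpt8 and neither Tpsb2 nor Mcpt4. No basophil of CONV AsiDNA or FLASH was dividing, while 1 of 3 CONV basophils was. That CONV cell had 366 adjusted counts of Mcpt8, 544 of Prss34 (a serine protease of basophils and mast cell precursors), 40 of Ctsg (cathepsin G) and 34 of Cpa3, with Il6, Ccl4, Csf1 and Hdc at 0, and its total of 5103 adjusted counts was the highest among the basophils. The other 2 CONV basophils had Ccl4 at 275 and 246 and Ccl3 at 118 and 102.

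The 8 members of neither class were like the basophils apart from Mcpt8. In all 8 Mcpt8, Cma1, Tpsb2, Mcpt4 and Kit were at 0, and Il6, Ccl3, Ccl4, Csf1 and Hdc were above 0, with Ccl3 between 16 and 105 and Ccl4 between 69 and 206 adjusted counts. With them added, basophils were 0.0785%, 0.372% and 0.319% of the 3 libraries.

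Between libraries, mast cells could be compared for CONV and CONV AsiDNA, and basophils for CONV AsiDNA and FLASH, since a comparison was made only with at least 10 cells on each side. In mast cells, 93 of 3395 genes (2.74%) were at least 2-fold higher in CONV and 129 (3.80%) at least 2-fold higher in CONV AsiDNA, and 84 (2.5%) and 116 (3.45%) where genes listed at 0 in either library were left out. With a pseudocount of 10 these were 304 and 333, and with 200 they were 22 and 26. Most cytokine genes tested were at least 2-fold lower in the CONV mast cells.

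Of 15 cytokine, chemokine and growth factor genes tested, 11 were at least 2-fold lower in CONV mast cells than in CONV AsiDNA mast cells, 0 were higher, and the median log2 difference was -1.62, against a median of 0.0048 over all 3395 genes. Il13, a cytokine of type 2 responses, was above 0 in 12 of 109 CONV mast cells at 50.8 adjusted CPM, in 28 of 52 CONV AsiDNA mast cells at 531 and in 4 of 8 FLASH mast cells at 343. Ccl3 was at 108, 1629 and 2480, Ccl4 at 2356, 9682 and 12593, and Ccl7 at 813, 3178 and 1374 in CONV, CONV AsiDNA and FLASH. The FLASH level of Ccl3 came wholly from 2 of 8 mast cells, with 16 and 49 adjusted counts, and these same 2 cells, both with Mcpt8 above 0, held 167 and 139 of Ccl4, while 1 of the other 6 held 24 and the rest were at 0. Tnf was at 102 and 546 in CONV and CONV AsiDNA (27 of 109 and 36 of 52 cells), and it was listed at 0 in FLASH. Il6, Ccl1, Ccl2, Csf1, Lif and Tgfb1 were the others, while Il4 (-0.90) and Osm (-0.66) were lower by less than 2-fold, and Hgf (0.02) and Vegfa (0.37) were not lower. At a common depth of 1000 adjusted counts, Il13 was above 0 in 4.59% of CONV and 23.1% of CONV AsiDNA mast cells.

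The Mcpt8 cells described above were more frequent in CONV AsiDNA, so the list was computed again without them. Then 9 of 15 cytokine genes were at least 2-fold lower in CONV and the median was -1.16. Ccl4 moved from -2.02 to -1.86, Il13 from -2.53 to -1.98, Il6 from -1.87 to -1.16, Ccl3 from -3.41 to -2.21 and Csf1 from -1.50 to -0.64. Tnf (-1.98 to -2.20), Ccl7 (-1.90 to -2.16) and Ccl2 (-1.62 to -1.74) moved further from 0. Without the dividing cells the count was again 11 of 15.

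Some protease genes were lower in CONV mast cells as well. Of 12 tested, 5 were at least 2-fold lower and 0 higher, with a median log2 difference of -0.79, but the rules for members and classes had used 5 of the 12. Among the other 7, 3 were at least 2-fold lower (Mcpt2, Gzmb and Ctsg) and the median was -0.38. Mcpt2 was at 47.8 in CONV and 1760 in CONV AsiDNA (log2 difference -4.21, and -3.46 without the dividing cells, 1 of which held 158 adjusted counts) and Gzmb at 1390 and 4513 (-1.66), and Ctsg was at -1.10. Of the rule genes, Mcpt4 (-1.06) and Mcpt8 (-3.42) were past 2-fold. Without the Mcpt8 cells, 6 of 12 were past 2-fold, and again 3 of the 7 that no rule used. Those cells were picked by Tpsb2 and Mcpt4 at 0 and Mcpt8 above 0, and most were in CONV AsiDNA. Their removal therefore shifts these genes by selection (Mcpt4 to -1.32, Tpsb2 to -0.76 and Mcpt8 to -2.08), and the 6 of 12 is no check on them. Cma1 moved to -1.07. Over all mast cells, Cma1 (-0.88), Cpa3 (-0.71) and Tpsb2 (-0.50) were lower by less than 2-fold. The histamine and proteoglycan genes did not share this pattern, as 0 of 13 tested were past 2-fold in either direction and the median was 0.08 (-0.06 without the Mcpt8 cells).

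Immediate early genes, which respond quickly to stimulation and also to tissue dissociation, were mostly above the CONV AsiDNA level in CONV mast cells, few of them by 2-fold. Of 17 tested, 14 had a positive log2 difference, 3 of them past 2-fold (Dusp1 1.33, Klf2 1.15 and Klf4 1.07), 1 was past 2-fold the other way (Ier3, -1.01), and the median was 0.78. Without the Mcpt8 cells 1 of the 3 stayed past 2-fold (Dusp1 1.19, with Klf2 at 0.89 and Klf4 at 0.85), and without the dividing cells Klf4 was at 0.94. Fos was at 20649.5, 12025 and 13280 in the 3 libraries. Cebpb was above 0 in 98 of 109, 25 of 52 and 3 of 8 mast cells at 2039, 504 and 611.

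Among the IgE receptor and signalling genes only Syk (1.18) passed 2-fold of 16 tested, with a median of -0.09, and it was above 0 in 36 of 109 CONV and 6 of 52 CONV AsiDNA mast cells. The receptor list, which lacks Il7r and Cxcr4, had 18 genes tested. Of these, 0 were past 2-fold higher in CONV and 2 lower (Adora3 -1.13 and Csf2rb2 -1.07). Without the Mcpt8 mast cells that lacked Tpsb2 and Mcpt4, 0 of 17 were higher and 1 lower, with Csf2rb2 at -0.87. Kit was at 3201 and 4129 and Il1rl1 at 2323 and 2748. Itga4 was at 89.7 and 420 (-1.75), and Cxcr4, a chemokine receptor, at 203 and 52.5 (1.30).

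Of 20 p53 targets, 4 reached the minimum sum in mast cells, of which 1 was at least 2-fold higher and 2 at least 2-fold lower in CONV, with a median log2 difference of -0.71. Where genes listed at 0 in either library were left out, 3 were tested, 1 was higher and 1 lower, and the median was -0.11. Cdkn1a, which encodes the cell cycle inhibitor p21, was above 0 in 79 of 109 CONV mast cells at 786 adjusted CPM, in 24 of 52 CONV AsiDNA mast cells at 357 and in 1 of 8 FLASH mast cells at 76.3. The log2 difference between CONV and CONV AsiDNA was 1.04, and it was 0.97 without the dividing cells. At a common depth of 1000 adjusted counts Cdkn1a was above 0 in 47.7% and 26.9%. In all other cells of the libraries, Cdkn1a was at 340, 331 and 357. Gdf15, a stress cytokine of the same list, went the other way in mast cells (86.7 and 541, log2 difference -2.11). Btg2, an antiproliferative gene, was listed at 0 in CONV and stood at 73.5 in CONV AsiDNA (-1.31). Its value listed at 0 is not read as a lower level. In basophils Cdkn1a was above 0 in 1 of 3, 2 of 22 and 0 of 18 cells. Mdm2 was above 0 in 7 of 109 and 3 of 52 mast cells.

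Among genes above 0 in all 3 libraries, those farthest apart in mast cells were Glul, Cited2, Klf9, Cirbp and mt-Nd4l on the CONV side. Glul, glutamine synthetase, was above 0 in 88 of 109 CONV mast cells at 1073 and in 17 of 52 CONV AsiDNA mast cells at 168 (log2 difference 2.36), with 3 of 8 at 496 in FLASH. Cited2, a transcriptional regulator, was at 4152, 809 and 2900 (2.29 between the first pair). Klf9 was at 380 and 52.5, and Cirbp, a cold-inducible RNA-binding protein, at 547 and 94.6. Glul was also higher in the other cells of CONV (265) than of CONV AsiDNA (132), whereas Cited2 in other cells was at 128 and 103.

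On the CONV AsiDNA side of this ranking were Actb, Mcpt8, Ccl3, Stmn1 and Scin. Actb, cytoplasmic actin, was listed at 0 in 107 of 109 CONV mast cells and in 38 of 52 CONV AsiDNA mast cells, although it was above 0 in 78.5% and 79.7% of the other cells of these libraries and in 42 of 43 basophils. Since every cell uses actin, such a value is not read as an absence of the transcript. Stmn1, a gene of dividing cells, was above 0 in 1 of 109 and 10 of 52 mast cells and had a sum below the minimum of 20 without the dividing cells. Scin, an actin-severing protein of secretory cells, was above 0 in 8 of 109, 19 of 52 and 3 of 8 mast cells at 50.8, 552 and 496. Without the Mcpt8 cells the log2 difference moved from -4.08 to -2.04 for Actb and from -2.58 to -1.56 for Scin.

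**Figure D4:**
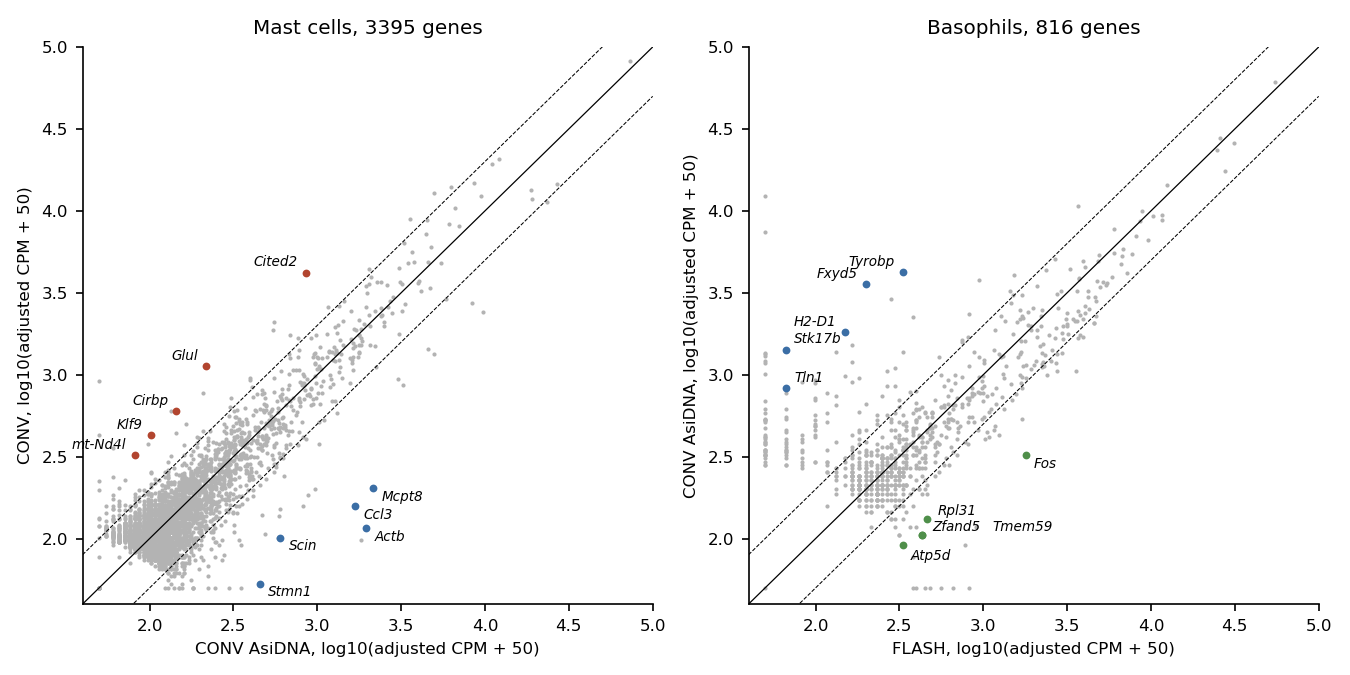
Level of each tested gene as log10 of adjusted CPM plus 50 in mast cells of CONV AsiDNA (x) and CONV (y) on the left, and in basophils of FLASH (x) and CONV AsiDNA (y) on the right; the solid line is equality and the dashed lines 2-fold. Coloured points are the genes farthest apart among those above 0 in all 3 libraries, such as Glul and Cited2 above and Actb, Mcpt8 and Ccl3 below in mast cells, and the left edge of the right panel holds genes listed at 0 in FLASH basophils.

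In basophils of CONV AsiDNA and FLASH, most secreted factors that set basophils apart from mast cells were within 2-fold of each other. Of 816 genes tested, 143 (17.5%) were at least 2-fold higher in CONV AsiDNA and 66 (8.09%) in FLASH, and 105 (13.6%) and 59 (7.66%) where genes listed at 0 in either library were left out. With a minimum sum of 50 the counts were 57 and 34, and with no minimum 561 and 280. A pseudocount of 200 gave 104 and 32. Of the 8 secreted factors called for basophils above, Ccl3, Ccl4 and Il6 differed by a log2 of 0.10, 0.15 and 0.06, Csf1 by -0.56, Osm by 0.72, Il4 by 0.84 and Ccl9 by 0.92, and 1 was past 2-fold (Hilpda, 1.71). Of the receptors, 4 of 8 tested were at least 2-fold higher in CONV AsiDNA and 0 in FLASH (median 0.92), and of the eicosanoid and steroid enzymes 4 of 5 and 0 (median 1.50). Where genes listed at 0 were left out these were 3 of 7 and 0 (0.78) and 3 of 4 and 0 (1.26). Alox5ap (1.50) was higher in CONV AsiDNA, while Hdc (0.36) and Cd200r3 (-0.21) were within 2-fold. The rule genes Mcpt8 and Gata2 stood at 0.16 and -0.39. Cd200r3 is an activating receptor of basophils and mast cells.

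By the same ranking, the genes farthest above FLASH were Stk17b, Fxyd5, Tyrobp, Tln1 and H2-D1. Each was above 0 in at least 20 of 22 CONV AsiDNA basophils and in 1 of 18 FLASH basophils. Tyrobp, a signalling adaptor, was at 4164 and 281 adjusted CPM, and H2-D1, an MHC class I chain, at 1769 and 99.2. Fcer1g, the gamma chain that the IgE receptor needs to signal, was above 0 in 22 of 22 CONV AsiDNA basophils and 1 of 18 FLASH basophils, and in 101 of 109, 52 of 52 and 0 of 8 mast cells. In the other cells of the 3 libraries Fcer1g was above 0 in 30.7%, 32.5% and 31.3%. Fcer1a and Ms4a2, the other chains, were above 0 in 17 and 16 of those 18 basophils.

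A single FLASH basophil carried most of what remained. That cell held 14 adjusted counts of Fcer1g, 17 of Tyrobp, 9 of Fxyd5, 6 of H2-D1, 5 of Ptprc and 1 of Stk17b, all at 0 in the other 17. Of 128 genes above 0 in at least 90% of CONV AsiDNA basophils, 14 were above 0 in at most 10% of FLASH basophils, and this cell had 10 of them above 0, another cell 1 and the remaining 16 cells none. Its total was 3454 adjusted counts, near the median of 3320.5. Why these genes are listed at 0 in FLASH was not tested.

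The list counts of this comparison follow the same split. Of 14 cytokine genes tested, 6 were at least 2-fold higher in CONV AsiDNA basophils and 0 in FLASH, but 4 of the 14 were listed at 0 in FLASH, and without those 2 of 10 remained (Il13 and Hilpda). Ccl6 was above 0 in 20 of 22 CONV AsiDNA basophils and listed at 0 in all FLASH and CONV basophils, although 19.5% of the other FLASH cells had it above 0. Of 10 adhesion genes 6 were higher in CONV AsiDNA, with a median log2 difference of 1.59, and 5 of 9 without genes listed at 0 (median 1.11). Selplg (a ligand of P-selectin), Itgb1 and Cxcr4 were above 0 in 17, 13 and 15 of 22 basophils and each in 1 of 18. Cd9, a tetraspanin, was above 0 in 21 of 22 and 16 of 18. Of 15 immediate early genes 0 were higher in CONV AsiDNA and 3 in FLASH (Fos -2.47, Fosb -1.76 and Jun -1.14), with Fos at 272 and 1736. Zfand5 (-2.04, and -1.17 with the members of neither class added), Tmem59, Atp5d and Rpl31 were the other genes farthest above CONV AsiDNA, and Rpl31, a ribosomal protein gene, was at 81.7 and 413. Most other Rpl and Rps genes tested also had a negative log2 difference, several past 2-fold (such as Rpl23a -1.66, Rpl10a -1.52 and Rps18 -1.39), while Rpl36al was at 0.02.

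**Figure D5:**
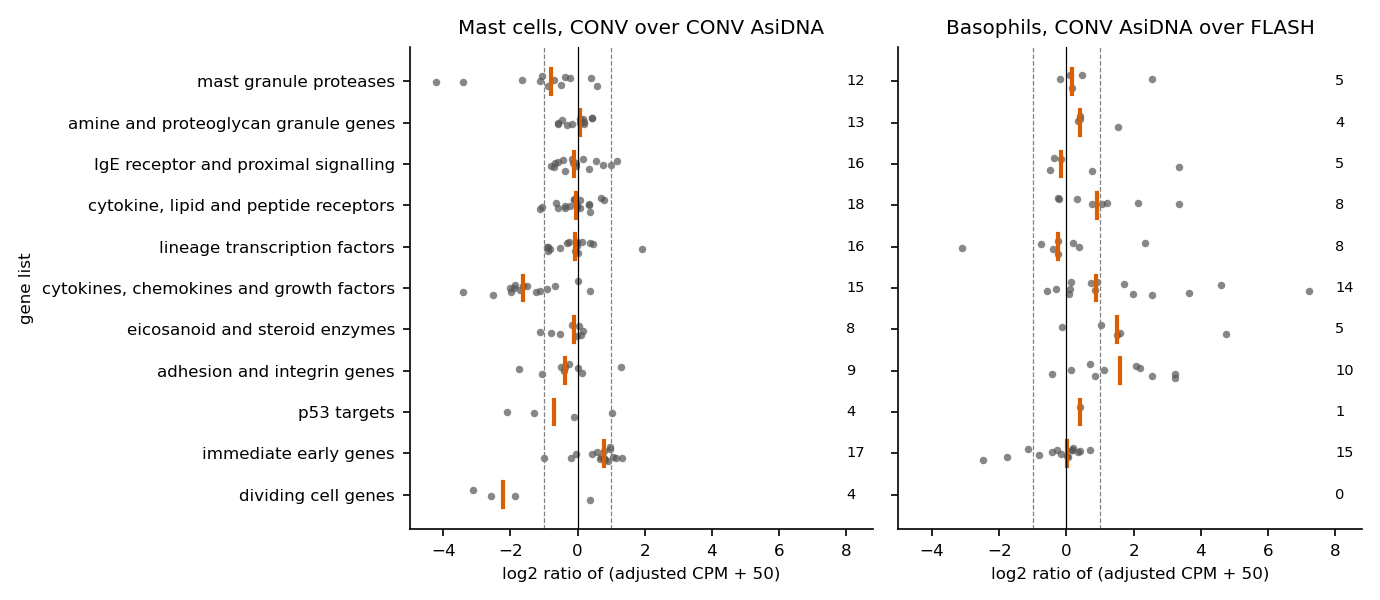
Log2 ratio of adjusted CPM plus 50 for each tested gene of 11 lists, in mast cells (CONV over CONV AsiDNA, left) and basophils (CONV AsiDNA over FLASH, right); orange bars are medians, dashed lines 2-fold and the number at the right of each row the genes tested. In mast cells the cytokine list has a median of -1.62 and the immediate early list of 0.78. In basophils the adhesion list has a median of 1.59 (1.11 without genes listed at 0).

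The 8 FLASH mast cells were too few for a ratio, and their values are given as such. Il1rl1, Kit, Hes1 and Slc18a2 (the transporter that loads histamine into granules) were above 0 in 8, 8, 7 and 7 of them. Of 543 genes above 0 in at least 50% of CONV AsiDNA mast cells, 70 were listed at 0 in all 8, among them Fcer1g, Klf2, Vim, Lmna and B2m. In the reverse direction 11 of 645 genes were listed at 0 in CONV AsiDNA mast cells, and the leading ones were mitochondrial: mt-Co1 stood at 5114 in FLASH mast cells and was above 0 in 1 of 109 CONV and 0 of 52 CONV AsiDNA mast cells. The mitochondrial share of adjusted counts was 1.82% in FLASH mast cells against 0.0894% and 0.0531% in CONV and CONV AsiDNA, and 2.15%, 1.49% and 0.996% over all cells. Srgn, the core protein of granule proteoglycan, was above 0 in 109 of 109, 52 of 52 and 5 of 8 mast cells at 7990, 6961 and 1450.

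Factors that act on these cells were measured in the rest of the lung. Kitl, the ligand of KIT, was at 39.2, 82.5 and 98.8 adjusted CPM in the other cells of CONV, CONV AsiDNA and FLASH, the reverse of the order of mast cell shares. Il33 was at 57.1, 80.5 and 100.2, and Tslp, an epithelial cytokine, at 1.1, 2.7 and 2.1. With 3 libraries no relation between these levels and the shares can be tested.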

How the data were processed

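Single-cell 3′ libraries of 3 irradiated mouse lungs were analysed. The authors deposited natural log values per gene and cell, each of the form ln(1 + whole number), and the whole numbers were recovered as adjusted counts. Cell Ranger 6.0.0 and the build mm10 are named in the submitters' processing notes, and R and Seurat in the methods. The sources used here do not give how cells were filtered and values adjusted. The plan had assumed raw counts, so no count model was used and a gene is only said to be listed at 0; 1462 genes were at 0 in every cell. The other 4 tables (12 per-sample columns) do not use the mouse libraries' identifiers and were not used, nor were the authors' own comparison columns.

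Adjusted counts were summed per class and library, scaled to a total of 1000000, and compared as log2 ratios after adding 50, for genes with a sum of at least 20. Between libraries at least 10 cells per side were required. The planned rule for naming genes, CONV against both others, could not be applied with this minimum, so the 5 genes farthest above and below were named for the pair that could be compared, among genes above 0 in at least 10 cells and in each of the 3 libraries. Between classes, the 10 genes with the largest smallest difference on each side were named. The members and gene lists were chosen with earlier results of these data known. No doublet caller was run. The comparisons between libraries were tested on simulated data with 200 changed genes: in mast cells (3395 genes) 16% of 2-fold, 73% of 4-fold and 98.5% of 8-fold changes passed 2-fold, and in basophils (816 genes) 34%, 97.5% and 100%. The simulated sums were drawn with Poisson noise from the pooled profile of the class. They had no spread between cells or mice and no genes set to 0 in a library, so these rates do not give the recovery in the real data. Python 3.11.15, numpy 2.4.6, scipy 1.17.1, pandas 2.3.3 and matplotlib 3.10.9 were used.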

Additional observations from a re-analysis of the deposited data

How the results depend on the processing

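The shares of mast cells and basophils stayed within the interval of their reported value under every alternative tried, including thinning and rules of 2 or 4 genes. The CONV basophil share, 0.0471%, ranged from 0.0157% with thinning to 0.0785% with the members of neither class added. Counts past 2-fold depended on the pseudocount and the minimum sum. Without the Mcpt8 mast cells 13 of 132 list genes changed sign between CONV and CONV AsiDNA (Lmo4 from -0.87 to 0.04), and without the dividing cells 2 of 132 did, none of them past 2-fold. The median of the dividing list went from -2.21 (4 genes) to 0.27 (1 gene) without dividing cells. In mast cells, the counts higher in CONV and in CONV AsiDNA were 304 and 333 with a pseudocount of 10, 22 and 26 with 200, and 55 and 65 with a minimum sum of 50. In basophils, a pseudocount of 200 gave 32 genes higher in FLASH, a minimum sum of 50 gave 57 and 34 higher in CONV AsiDNA and FLASH, and no minimum gave 561 and 280. Between mast cells and basophils, 373 and 143 were higher in mast cells and in basophils with a pseudocount of 10, and 47 and 42 with 200. Leaving out 1 library at a time gave 213 to 335 and 141 to 156. A gene had to be past 2-fold in every library kept, so leaving out 1 library cannot lower these counts. Of the values of named genes, 258 stayed and 57 moved under the settings listed at the outset, and 62 stayed and 7 moved under those added after seeing the data.

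With 1 mouse per condition, mouse and treatment cannot be told apart. No paired analysis between conditions was possible because each group had 1 library. The comparison of mast cells with basophils within libraries was not tested. The 8 FLASH mast cells and 3 CONV basophils limit every level given for them, and no depth limit was set for genes listed at 0. Alternatives without the Mcpt8 mast cells, the dividing cells or the genes listed at 0 were chosen after seeing the data.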

Other observations

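Some markers of other granulocytes were above 0 in the members. Of the eosinophil list, Alox15 was above 0 in 1 of 3, 7 of 22 and 5 of 18 basophils of CONV, CONV AsiDNA and FLASH and in 5 of the 8 members of neither class, and Ccr3 in 1, 3 and 1 basophils, while Siglecf and Prg2 were at 0. Il5ra was above 0 in 3 of 109 and 5 of 52 mast cells of CONV and CONV AsiDNA. Of the neutrophil list only Cxcr2 was above 0, in 1 of 3, 11 of 22 and 1 of 18 basophils in the same order, while S100a8 and S100a9 were at 0. Cdh1, which encodes the adhesion protein E-cadherin, was above 0 in 6 of 22 CONV AsiDNA and 10 of 18 FLASH basophils, with the epithelial genes Krt8 and Krt18 at 0, and Epcam at 0 by the rule. Itga2b, an integrin chain known from platelets and mast cells, was above 0 in 73 of 109, 48 of 52 and 7 of 8 mast cells, and the other 6 genes of the platelet list were at 0.

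The cytokine Il18 was at 66.9, 68.2 and 60.0 adjusted CPM in the other lung cells of CONV, CONV AsiDNA and FLASH.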
